A study of Mus musculus with 2 samples.

Results

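The circadian clock genes described here are Per1, Per2, Per3, Cry1, Cry2, Arntl, Clock, Nr1d1, Nr1d2 and Dbp, 10 of the 32285 genes counted. The choice was by name and not by a cutoff on their values, but earlier results of these data were known. The genes were measured by single-cell RNA sequencing of mouse retina, with 1 library made from pooled control retinae and 1 from pooled light-damaged retinae. Control mice were kept in the dark for 18 h. Mice of the light damage group were also kept in the dark for 18 h, then received 5000 lux of light for 30 min and recovered for 6 h in dim light. Both groups were 6 to 9 weeks old, on an albino Balb-C/CD1 background with the light-sensitive variant of RPE65, and carried floxed Tgfbr2 alleles without Cre, so they stood for wild type. Retinae of 3 to 5 mice were pooled per library, and with 1 library per group no p-value was computed and every 95% interval covers counting error only. The light exposure started in the early morning, and the time of day at which control retinae were taken is not given in the sources used here. Light, time of day and library therefore cannot be told apart, and neither can sex. The study used both sexes and the sexes in each pool are not given in the sources used here, but Xist stood at 2220 CPM in control and 0.182 CPM in light damage nucleus-rich rods.

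The molecular clock is a feedback loop of transcription found in most cells. CLOCK and BMAL1, the product of Arntl, bind E-boxes as a pair and switch on the Per, Cry, Nr1d1, Nr1d2 and Dbp genes. PER and CRY proteins then repress the pair, and the nuclear receptors REV-ERBα and REV-ERBβ, from Nr1d1 and Nr1d2, repress Arntl. Photoreceptors and other retinal cells hold clocks of their own, which set daily rhythms of visual function, and Per1 can also be induced by light through cAMP response elements.

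On GRCm38, the pair of activators lies at chr7:113207465-113314126 (Arntl, ENSMUSG00000055116) and chr5:76209868-76304792 (Clock, ENSMUSG00000029238). The period genes lie at chr11:69095217-69109960 (Per1, ENSMUSG00000020893), chr1:91415982-91459324 (Per2, ENSMUSG00000055866) and chr4:151003652-151044665 (Per3, ENSMUSG00000028957). The cryptochromes lie at chr10:85131700-85185064 (Cry1, ENSMUSG00000020038) and chr2:92403646-92434043 (Cry2, ENSMUSG00000068742). Nr1d1 (ENSMUSG00000020889) lies at chr11:98767932-98775333 and its 3′ end overlaps Thra on the opposite strand, Nr1d2 (ENSMUSG00000021775) lies at chr14:18204054-18239127, and Dbp (ENSMUSG00000059824) lies at chr7:45705088-45710203. The counting used the strand, so reads of Nr1d1 and Thra were kept apart.

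The 250 bases before the start site were taken from RefSeq promoter windows (GRCm38.p6), which matched 9 of the 10 genes, Per2 not among them. Per1, Cry1 and Nr1d1 are shown because they were the members at least 2-fold higher in nucleus-rich rods after light damage, and Per3 because it was the only matched member with D-boxes. Capitals mark an E-box (CACGTG), its variant (CACGTT) or a D-box (TTATGTAA or TTACGTAA), read on both strands, with each window 5′ to 3′ along its gene.
Per1, chr11:69098699-69098948, plus strand: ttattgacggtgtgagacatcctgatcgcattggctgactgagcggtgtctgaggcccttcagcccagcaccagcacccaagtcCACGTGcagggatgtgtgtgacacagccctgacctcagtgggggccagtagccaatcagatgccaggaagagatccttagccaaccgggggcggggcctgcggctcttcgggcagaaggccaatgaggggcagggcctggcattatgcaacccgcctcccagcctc
Cry1, chr10:85185055-85185304, minus strand: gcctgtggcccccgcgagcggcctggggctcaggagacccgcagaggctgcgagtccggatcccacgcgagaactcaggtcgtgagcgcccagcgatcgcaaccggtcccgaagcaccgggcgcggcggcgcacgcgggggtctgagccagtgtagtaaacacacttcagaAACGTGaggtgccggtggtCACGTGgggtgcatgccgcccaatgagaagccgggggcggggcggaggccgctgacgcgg
Nr1d1, chr11:98775378-98775627, minus strand: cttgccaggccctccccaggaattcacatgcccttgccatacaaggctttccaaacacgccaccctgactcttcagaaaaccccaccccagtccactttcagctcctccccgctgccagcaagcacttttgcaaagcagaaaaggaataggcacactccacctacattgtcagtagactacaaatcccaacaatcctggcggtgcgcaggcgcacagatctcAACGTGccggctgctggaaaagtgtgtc
Per3, chr4:151044666-151044915, minus strand: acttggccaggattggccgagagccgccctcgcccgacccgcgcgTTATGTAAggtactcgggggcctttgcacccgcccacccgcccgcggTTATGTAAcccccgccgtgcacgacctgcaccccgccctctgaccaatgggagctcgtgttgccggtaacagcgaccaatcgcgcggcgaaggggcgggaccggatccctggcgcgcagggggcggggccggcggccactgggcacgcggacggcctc
For Per1 the tables also give another start, with the window chr11:69099902-69100151, which held none of the motifs in capitals. In the window shown Per1 held an E-box starting 166 bases before its start, Cry1 an E-box at 60 bases and the variant at 79, and Nr1d1 the variant at 28. Cry2 held the variant at 166 bases, and Per3 held D-boxes at 205 and 158 bases. Of all 32851 promoter windows of this length, 6.02% held the E-box, 3.85% its variant and 0.819% the D-box TTATGTAA, while 0.113% held TTACGTAA. The windows of Arntl, Clock, Nr1d2 and Dbp held none of these letters, which says nothing of sites elsewhere. The cAMP response element TGACGTCA, in 1.55% of all windows, was in no member's window, and its core TGACG, in 17.8% of them, was in those of Per1, Cry1 and Cry2. The cores TAGGTCA and TGGGTCA of the element read by REV-ERB and ROR receptors, in 2.23% and 3.24% of all windows, were in none of the members' windows.

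The libraries held 30605284 UMIs (unique molecular identifiers, each a counted RNA molecule) in control and 54413601 in light damage, and 3669 and 5593 droplets were kept, with 7 barcodes in common. Droplets were put in classes by their share of marker UMIs, and rods were split by their unspliced share. Cytoplasm-rich rods, under 20% unspliced, numbered 2380 in control and 1893 in light damage, and nucleus-rich rods, over 30%, numbered 721 and 3144. Control held 154 RPE-like droplets (retinal pigment epithelium) and 43 Müller-like droplets, and light damage held 283 and 28. The defining markers of both names were present. Rpe65 stood at 4245 and 1888 CPM in RPE-like droplets, Aqp4 at 2194 and 621 CPM in Müller-like droplets and at 0 in RPE-like droplets of both libraries. The Müller marker list as a whole did not part these 2 classes. Its median share of UMIs was 1.82% and 2.10% in RPE-like and 1.58% and 1.01% in Müller-like droplets. The RPE marker share did, at 7.78% and 5.92% in RPE-like and 0 and 0.0089% in Müller-like droplets. Droplets with cone markers numbered 168 and 91, with Arr3 at 1441 and 2900 CPM, but they carried much rod RNA in control (a median of 8.31% rod marker UMIs per droplet, against 11.3% in cytoplasm-rich rods) and less in light damage (2.38%), so they are not called cones here. Free RNA was estimated at 17.2% and 5.56% of the UMIs of Müller-like droplets, 8.44% and 3.80% of RPE-like droplets and at most 2.98% elsewhere. The median droplet held 2475 UMIs in control and 21105 in light damage among Müller-like droplets, and 2715.5 and 13790 among droplets with cone markers. It held 2674.5 and 6451 among RPE-like droplets, 3901 and 6119 among nucleus-rich rods and 2734 and 3108 among cytoplasm-rich rods. The largest droplet held 8.86% and 11.2% of the spliced plus ambiguous UMIs with cone markers, and 14.5% and 7.73% among Müller-like droplets. The part of these depth gaps and large droplets in the results was not tested.

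Levels are CPM, the spliced plus ambiguous UMIs of a gene as counts per 1000000 such UMIs of its class, and a gene is counted as higher or lower when it differed at least 2-fold with at least 20 UMIs over both libraries. After light damage, nucleus-rich rods had 3 of 10 members higher (Nr1d1, Per1 and Cry1) and 0 lower, where 8.91% of all genes were higher and 5.51% lower (14.4% together). Cytoplasm-rich rods had 0 of 9 members past 2-fold, where 6.63% of all genes were (5.07% higher and 1.56% lower). Droplets with cone markers had 1 of 9 higher (Nr1d1) and 0 lower, where 16.6% of genes were higher, 3.55% lower and 20.2% past 2-fold in either direction. RPE-like droplets had 2 of 8 higher (Per1 and Cry1) and 2 lower (Dbp and Cry2), where 13.0% and 7.02% of genes were (20.0% together). Müller-like droplets had 1 of 6 higher (Arntl) and 1 lower (Per3), where 25.3% and 17.5% of genes were, and 42.8% of all genes were past 2-fold in either direction there. The median log2 ratio of the members was 0.56 in nucleus-rich rods against 0.03 over all genes, 0.34 against 0.17 in cytoplasm-rich rods, 0.48 against 0.24 with cone markers, −0.35 against 0.03 in RPE-like and 0.04 against 0.06 in Müller-like droplets.

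**Figure D1:**
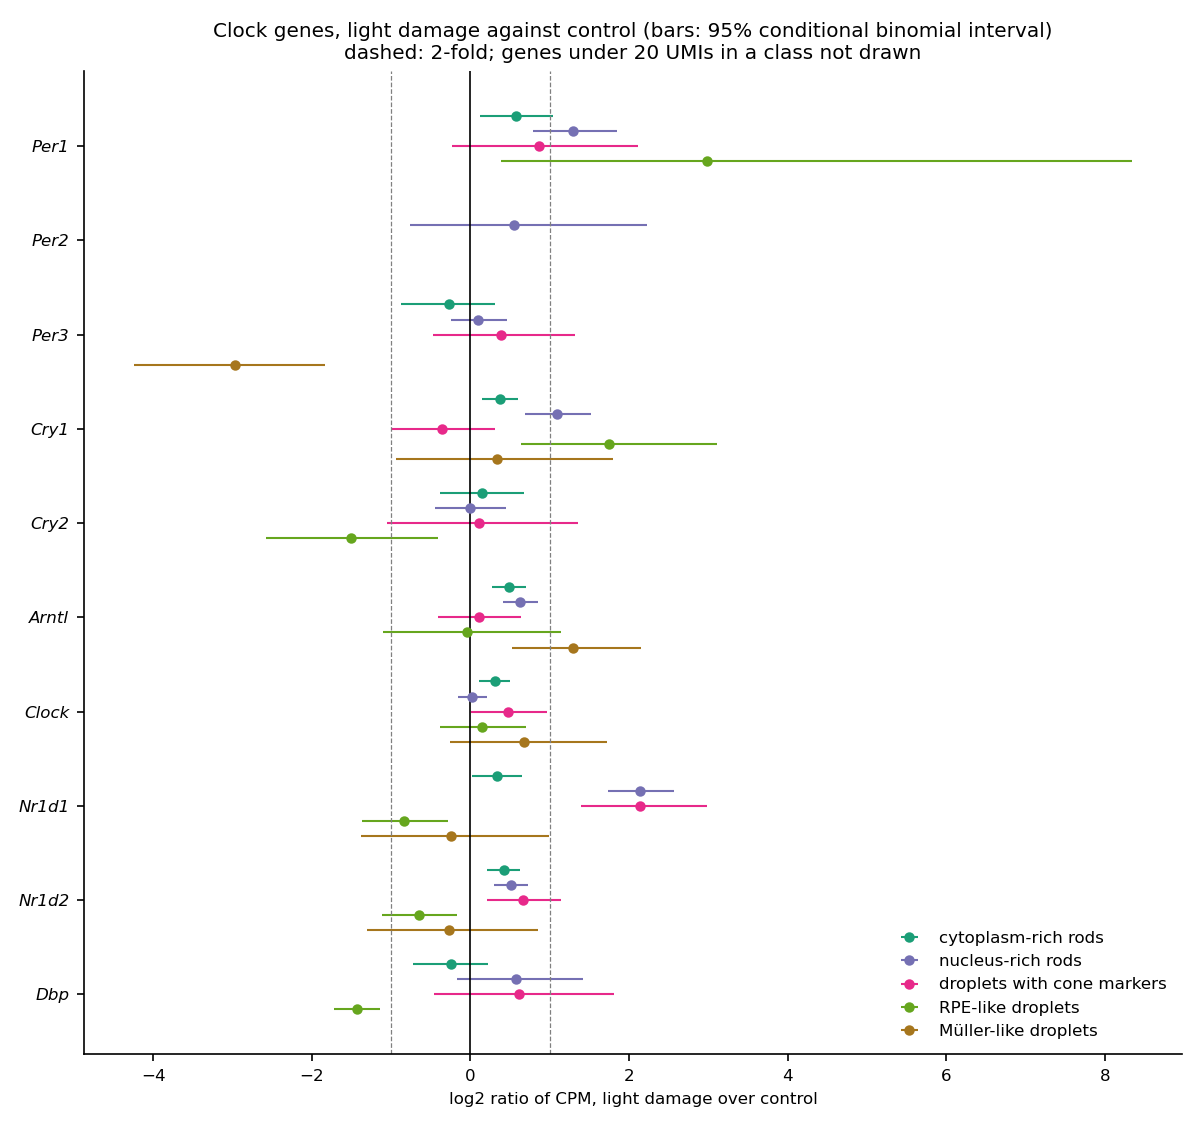
Log2 ratio of CPM, light damage over control, of each clock gene in each droplet class, with 95% conditional binomial intervals of the counts (1 library per group) and dashed lines at 2-fold. Nr1d1 lies at 2.14 in nucleus-rich rods and in droplets with cone markers and at −0.83 in RPE-like droplets.

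Nr1d1, the gene of the repressor REV-ERBα, gave the largest log2 ratio of the members in nucleus-rich rods by spliced plus ambiguous UMIs. In nucleus-rich rods it had 52 UMIs (34.4 CPM, 25.7 to 45.1) in control and 1660 (151 CPM, 144 to 159) in light damage, a log2 ratio of 2.14 (1.74 to 2.56). Thinned to 1464 UMIs per droplet by 1 random draw, as for all thinned shares here, 1.94% of control (1.07 to 3.24%) and 7.41% of light damage nucleus-rich rods (6.52 to 8.38%) held an Nr1d1 UMI. Unthinned, 5.41% and 26.5% did. No class here is known to lack the clock genes, so no class gives a background for these shares. Free RNA held Nr1d1 at 41.3 CPM in control and 101 CPM in light damage, and it made up an estimated 2.98% and 0.948% of the UMIs of nucleus-rich rods. Cytoplasm-rich rods held 21.8 and 27.5 CPM, a log2 ratio of 0.34 (0.03 to 0.65), where the median over all genes with at least 20 UMIs was 0.17. Droplets with cone markers held 26.3 CPM (16 UMIs) in control and 116 CPM (138 UMIs) in light damage, a log2 ratio of 2.14 (1.39 to 2.99). Among the 13 control and 77 light damage droplets with cone markers and under 6% rod marker UMIs the log2 ratio was 2.13 (0.55 to 4.43), from only 3 control UMIs against 123. RPE-like droplets went the other way, with 45 UMIs (66.1 CPM) in control and 86 (37.1 CPM) in light damage, a log2 ratio of −0.83 (−1.37 to −0.28), under 2-fold, and Müller-like droplets gave −0.25 (−1.39 to 0.99) from 10 and 22 UMIs.

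Nr1d2, the gene of its paralog REV-ERBβ, stayed under 2-fold in all 5 classes by spliced plus ambiguous UMIs. It stood at 130 CPM in control and 184 CPM in light damage nucleus-rich rods (log2 ratio 0.51, 0.29 to 0.73), at 47.5 and 63.4 CPM in cytoplasm-rich rods (0.42, 0.21 to 0.62) and at 87.2 and 138 CPM with cone markers (0.66, 0.21 to 1.14). With cone markers and under 6% rod markers it was −0.02 (−0.76 to 0.83). In RPE-like droplets it stood at 83.8 and 53.5 CPM, a log2 ratio of −0.65 (−1.11 to −0.17), but it was −0.03 with droplets weighted equally. The share of RPE-like droplets with an Nr1d2 UMI went the other way, at 4.55% in control (1.85 to 9.14%) and 10.2% in light damage (6.97 to 14.4%) when thinned to 1464 UMIs and at 21.4% and 28.6% unthinned, so no direction is read for Nr1d2 there. The thinned intervals overlap. Of the droplets with an Nr1d2 UMI, the draw left one in 7 of 33 in control and 29 of 81 in light damage, and no other draw was made. For Nr1d1 the thinned shares of RPE-like droplets were 11.04% in control (6.56 to 17.1%) and 4.24% in light damage (2.21 to 7.29%), and unthinned 16.2% and 21.6%. The difference between the classes was not tested for either gene.

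**Figure D2:**
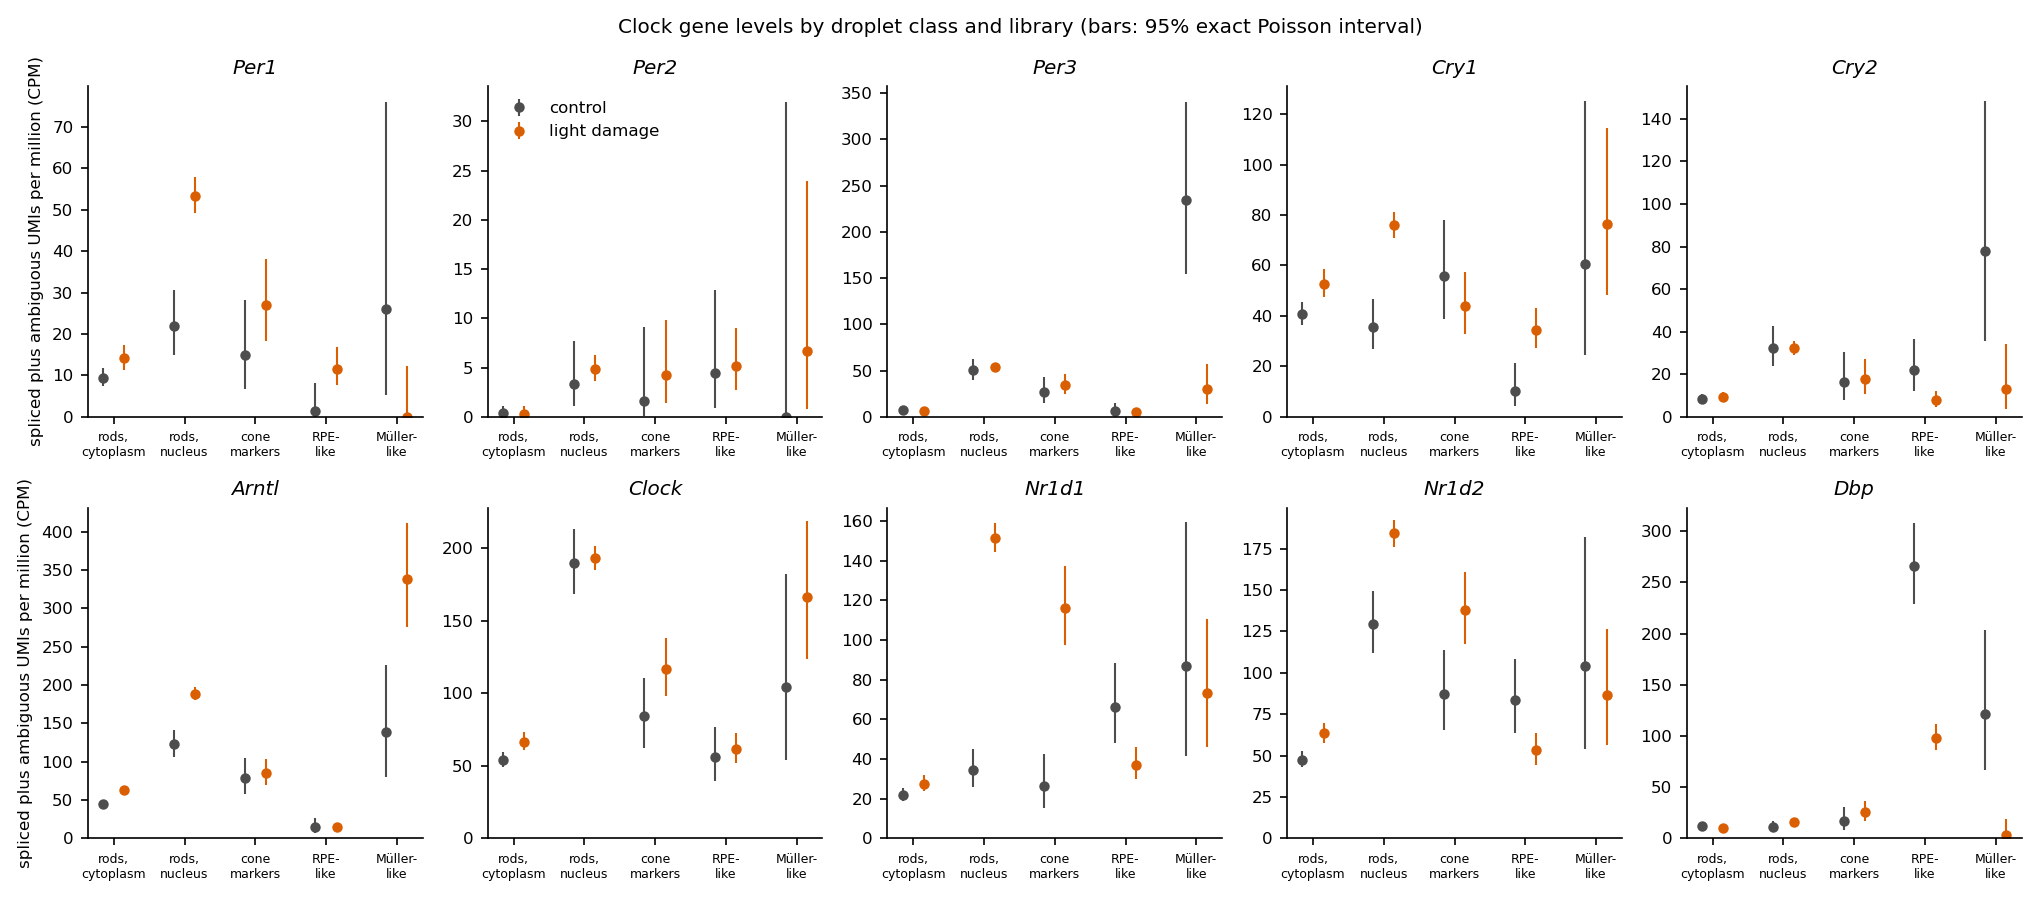
CPM (spliced plus ambiguous UMIs per 1000000 of the class) of each clock gene by droplet class in the control and light damage libraries, with 95% exact Poisson intervals. The light damage library stands above the control for Nr1d1 in nucleus-rich rods (151 against 34.4 CPM) and below it for Dbp in RPE-like droplets (98.4 against 266 CPM).

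The rods of the 2 libraries also differed in their unspliced share. Of the nucleus-rich rods, 212 of 721 in control and 458 of 3144 in light damage lay above 70% unspliced. Levels were therefore also set side by side within bins of unspliced share. In rods of 30 to 40% unspliced, Nr1d1 stood at 20.5 CPM (5 UMIs, 110 droplets) in control and 208 CPM (423 UMIs, 338 droplets) in light damage, a log2 ratio of 3.35 (2.11 to 4.98). It was 2.99 (2.01 to 4.21) at 40 to 50%, 1.04 (0.44 to 1.72) at 50 to 60% and 0.53 (−0.38 to 1.59) at 60 to 70%, and under 20% unspliced the log2 ratios were between 0.03 and 0.54. Rods of 20 to 30% gave 2.07 (1.27 to 2.95), so Nr1d1 was at least 2-fold higher in each bin from 20 to 60% unspliced, on 5 to 23 control UMIs per bin. Above 70% it was 1.25 (−0.18 to 3.00), with 5 control UMIs. Weighting droplets equally left the nucleus-rich rods' log2 ratio of Nr1d1 at 1.96. Other members were also higher in rods of 30 to 40% unspliced. Their log2 ratios were 1.78 (Arntl), 1.60 (Nr1d2), 1.21 (Cry1), 1.10 (Per1), 2.13 (Cry2, 2 control UMIs) and 3.25 (Per3, 1 control UMI). Clock stood at 0.21 there, while Dbp had 0 and 50 UMIs and Per2 had 0 and 8. No share over all genes was computed for the bins.

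**Figure D3:**
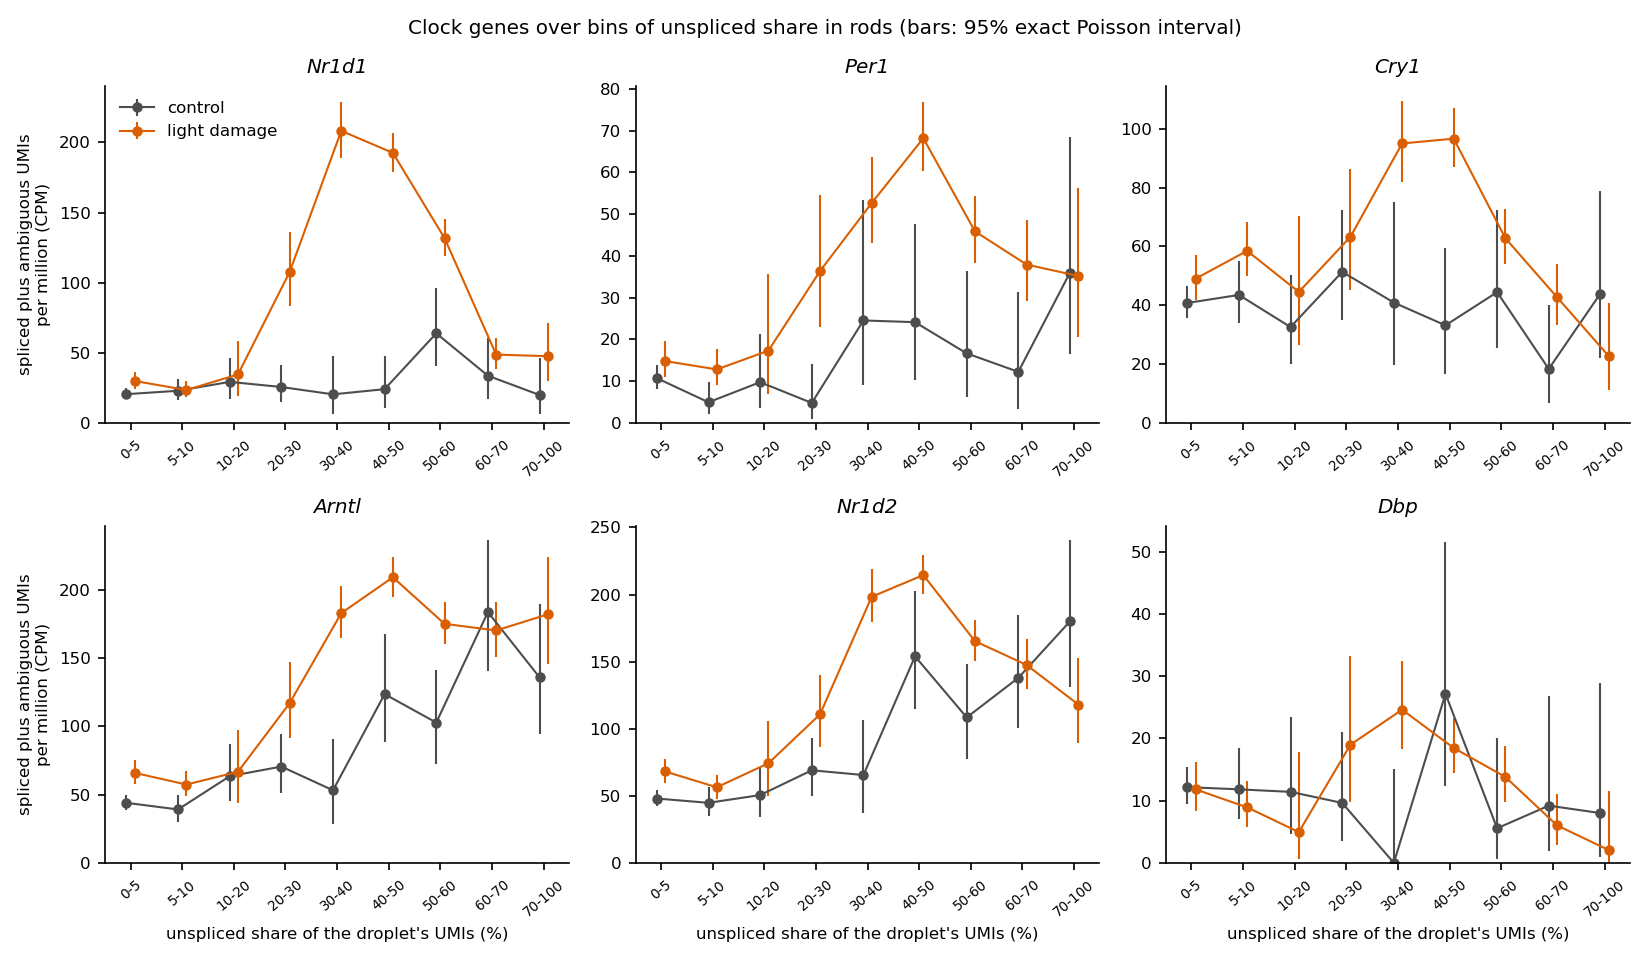
CPM of Nr1d1, Per1, Cry1, Arntl, Nr1d2 and Dbp in rods binned by the unspliced share of the droplet's UMIs (x axis, percent), control and light damage, with 95% exact Poisson intervals. Nr1d1 in light damage reaches 208 CPM at 30 to 40% unspliced, where the control stands at 20.5 CPM.

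Of the period genes, Per1, which light can induce, was higher in nucleus-rich rods. It had 33 UMIs (21.8 CPM, 15.0 to 30.7) in control and 586 (53.4 CPM, 49.2 to 57.9) in light damage, a log2 ratio of 1.29 (0.78 to 1.84), while cytoplasm-rich rods gave 9.48 and 14.1 CPM, 0.58 (0.12 to 1.04). Weighting droplets equally brought the nucleus-rich value to 0.84, below 2-fold. Bins of 30 to 70% unspliced gave Per1 log2 ratios of 1.10 to 1.63, from 4 to 8 control UMIs each, and the bin above 70% gave −0.03. RPE-like droplets held 1 control UMI against 27 (11.7 CPM), a log2 ratio of 2.99 (0.39 to 8.34) that rests on that 1 UMI. Free RNA held Per1 at 12.7 CPM in control and 27.4 CPM in light damage. With cone markers Per1 stood at 14.8 and 26.9 CPM, 0.86 (−0.24 to 2.11), and in Müller-like droplets 3 UMIs in control and 0 in light damage were too few for a call.

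Per2 gave too few UMIs for most calls, with 3 and 2 in cytoplasm-rich rods and 5 and 53 in nucleus-rich rods (log2 ratio 0.55, −0.77 to 2.23). Its unspliced UMIs in nucleus-rich rods were 1 in control and 62 in light damage, 0.467 and 5.07 per 1000000 unspliced UMIs, a log2 ratio of 3.44 (0.91 to 8.77). Per3 did not differ by 2-fold in either rod class, at 50.3 and 53.8 CPM in nucleus-rich rods (log2 ratio 0.10, −0.25 to 0.46). In Müller-like droplets it had 27 UMIs (234 CPM) in control and 9 (29.9 CPM) in light damage, a log2 ratio of −2.97 (−4.24 to −1.84), and the droplets were few. Those UMIs lay in 10 of 43 control and 6 of 28 light damage droplets (23.3% and 21.4%). Thinned, the shares were 11.6% (3.89 to 25.1%) and 7.14% (0.88 to 23.5%), with overlapping intervals. The log2 ratio interval takes no account of UMIs that lie in the same droplet. The median log2 ratio there was 0.06 over all genes with at least 20 UMIs over both libraries. It was −0.52 over the 238 genes with at least 50 UMIs in each library. Per3 had 0 unspliced UMIs in all 5 classes of both libraries, so this is not particular to rods. Nucleus-rich rods held 76 spliced or ambiguous ones in control and 591 in light damage. The reason was not tested.

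The cryptochromes, the repressors that act with PER, differed from each other. Cry1 stood at 35.7 CPM (54 UMIs) in control and 76.0 CPM (834 UMIs) in light damage nucleus-rich rods, a log2 ratio of 1.09 (0.69 to 1.51), and at 0.97 with droplets weighted equally. Bins of unspliced share gave log2 ratios of 1.21, 1.54, 0.50 and 1.22 from 30 to 70%, and −0.95 above 70%. Cytoplasm-rich rods gave 40.7 and 52.8 CPM, 0.38 (0.15 to 0.60). In RPE-like droplets Cry1 had 7 UMIs (10.3 CPM) in control and 80 (34.5 CPM) in light damage, 1.75 (0.64 to 3.11), where Cry2 had 15 (22.0 CPM) and 18 (7.77 CPM), −1.51 (−2.58 to −0.41). Weighted equally over droplets, Cry2 there was at −0.91. The share of RPE-like droplets with a Cry2 UMI was not lower, at 5.19% in control and 6.01% in light damage. Thinned, it was 1.30% (0.16 to 4.61%) and 1.41% (0.39 to 3.58%). With cone markers Cry1 stood at 55.9 and 43.7 CPM, a log2 ratio of −0.35 (−1.01 to 0.31), and at −1.36 (−2.35 to −0.25) under 6% rod markers, from 11 and 40 UMIs. Cry2 stood at 32.4 and 32.2 CPM in nucleus-rich rods, a log2 ratio of −0.01 (−0.45 to 0.45).

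The activators moved by less than 2-fold in both rod classes. Within bins of unspliced share, Arntl passed 2-fold at 30 to 40%, with 1.78 (0.99 to 2.71). Arntl stood at 122 and 188 CPM in nucleus-rich rods (log2 ratio 0.62, 0.40 to 0.85) and at 44.6 and 62.4 CPM in cytoplasm-rich rods (0.48, 0.27 to 0.70). Its nucleus-rich value fell to 0.27 with unspliced UMIs included. Clock stood at 190 and 193 CPM in nucleus-rich rods, a log2 ratio of 0.02 (−0.16 to 0.20), and at 53.9 and 66.7 CPM in cytoplasm-rich rods, 0.31 (0.11 to 0.50). In Müller-like droplets Arntl had 16 UMIs (139 CPM) in control and 102 (339 CPM) in light damage, 1.29 (0.52 to 2.15), and 0.96 under stricter marker limits. Unspliced Arntl there was 64 and 327 UMIs, 491 and 1123 per 1000000 unspliced UMIs, a log2 ratio of 1.19 (0.80 to 1.60).

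Dbp, a clock output that activates D-box genes, was lower in RPE-like droplets after light damage. It had 181 UMIs (266 CPM, 229 to 308) in control and 228 (98.4 CPM, 86.0 to 112) in light damage, a log2 ratio of −1.44 (−1.72 to −1.15), with a range of −1.51 to −1.17 over the other processing settings. Thinned to equal depth, 24.7% of control (18.1 to 32.3%) and 11.3% of light damage RPE-like droplets (7.86 to 15.6%) held a Dbp UMI, against 46.8% and 35.0% without thinning. RPE-like droplets of the control held Dbp at 266 CPM, where cytoplasm-rich rods held 12.04 CPM, and Müller-like droplets 121 CPM (66.4 to 204), so the control level was highest in RPE-like droplets of these classes. Müller-like droplets held 14 Dbp UMIs in control and 1 in light damage, too few for a call. In either rod class Dbp did not reach 2-fold, with −0.25 (−0.72 to 0.22) in cytoplasm-rich and 0.57 (−0.17 to 1.41) in nucleus-rich rods.

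Unspliced UMIs, which hold intron sequence, were also compared in rods. In nucleus-rich rods 3 of 8 members with enough UMIs were higher after light damage, Per1, Per2 and Nr1d1, and 0 lower, where 8.65% of genes were higher and 5.39% lower (14.0% together). Per1 had 5 and 81 unspliced UMIs (2.33 and 6.63 per 1000000), a log2 ratio of 1.51 (0.22 to 3.17), and Nr1d1 had 3 and 49 (1.40 and 4.01 per 1000000), 1.52 (−0.11 to 3.84), an interval that includes 0. Cry1 unspliced UMIs gave 0.56 (0.26 to 0.87) where its other UMIs gave 1.09, Arntl 0.27 (0.16 to 0.38), Nr1d2 0.48 (0.19 to 0.77), Cry2 0.76 (−0.01 to 1.64) and Clock 0.03 (−0.11 to 0.18). In cytoplasm-rich rods 1 of 4 members was higher (Cry1, 8 and 18 UMIs), and 0 lower, where 4.42% of genes were higher, 13.0% lower and 17.4% past 2-fold in either direction. Arntl was 81.7% unspliced in control and 73.3% in light damage nucleus-rich rods, Clock 62.5% and 56.9%, Cry1 65.4% and 50.7%, and Nr1d1 5.45% and 2.87%.

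**Figure D4:**
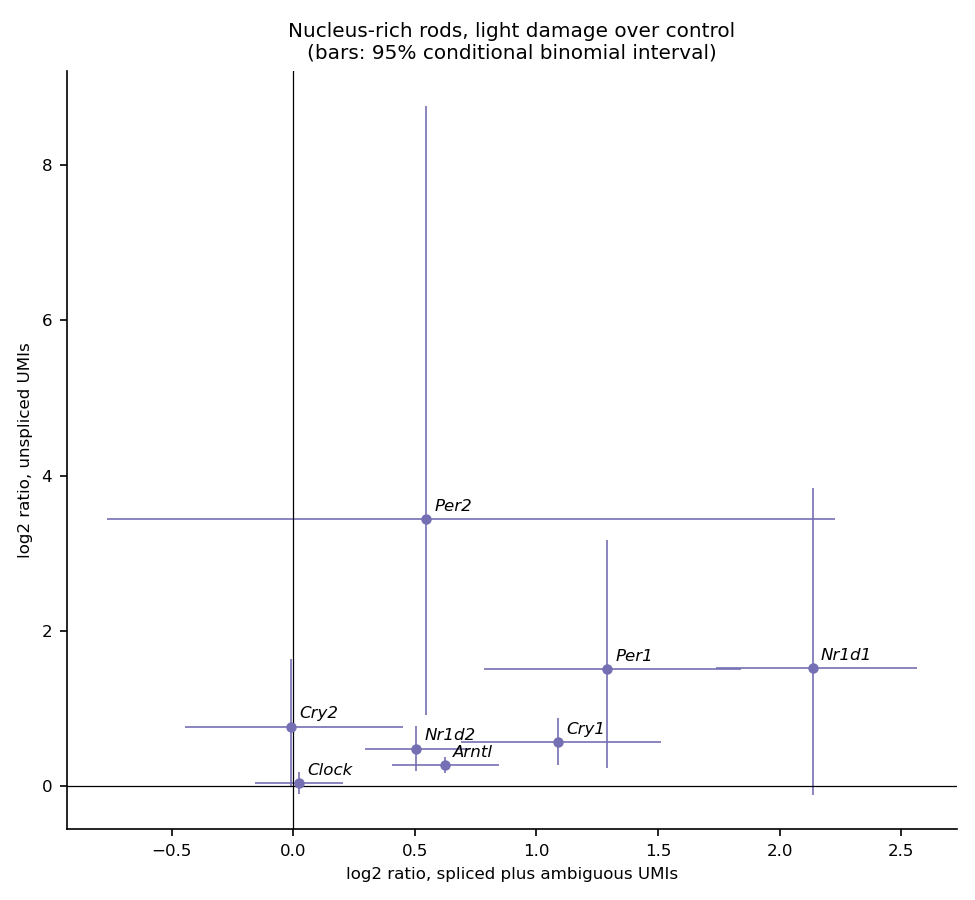
Log2 ratio, light damage over control, in nucleus-rich rods, from spliced plus ambiguous UMIs (x axis) and from unspliced UMIs (y axis), with 95% conditional binomial intervals. Nr1d1 stands at 2.14 and 1.52, Per1 at 1.29 and 1.51, and Arntl at 0.62 and 0.27.

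Nucleus-rich rods held more of most members than cytoplasm-rich rods in both libraries. In control 6 of 9 members were higher, where 41.9% of all genes were and 6.84% were lower (48.7% together), and in light damage 8 of 10 were, where 45.3% were and 4.93% were lower (50.2% together). With the ratios centred on the median gene, 3 of 9 were higher in control, and the share of all genes was not computed for centred ratios. Per3 gave the largest control log2 ratio of the members with enough UMIs, 2.69 (2.18 to 3.20), and Cry1 stood at −0.19 (−0.63 to 0.23). Per3 had 0 unspliced UMIs in every class, so its ratio rests on all of its UMIs, unlike members with unspliced UMIs set aside. Its rank is therefore not like for like. In control rods Per3 stood at 6.98 CPM under 5% unspliced and at 136 CPM above 70%. Nr1d1 gave 0.66 (0.18 to 1.12) in control and 2.46 (2.24 to 2.69) in light damage, but with unspliced UMIs included the control value was −0.48 and the light damage value 1.48.

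Other genes of the clock were taken from a list of 22, of which 19 were counted in nucleus-rich rods. There 3 were higher after light damage, the kinase gene Csnk1e (1.12, 0.53 to 1.76), the cryptochrome-binding ubiquitin ligase gene Fbxl21 (2.14, −0.44 to 7.49) and Fbxw11 (1.29, 0.83 to 1.79), and Arntl2, a paralog of Arntl, was lower (−1.76, −2.54 to −0.94), where 8.91% of all genes were higher and 5.51% lower. In RPE-like droplets 3 of 16 were higher and 1 lower, against 13.0% and 7.02% of all genes. Nfil3, a repressor at D-boxes, stood at 4.09 (1.55 to 9.42), from 1 control UMI against 58. Bhlhe40, a repressor at E-boxes, had 36 UMIs (52.9 CPM) and 585 (252 CPM), a log2 ratio of 2.25 (1.77 to 2.78), whereas its paralog Bhlhe41 stood at −1.10 (−1.57 to −0.62). Btrc was also higher there (1.25, 0.19 to 2.53). With cone markers 2 of 15 were higher, the D-box activator Hlf (2.14, 0.80 to 3.83) and Csnk1e (1.34, 0.55 to 2.21), and Bhlhe41 (−1.01) and Tipin (−1.55) were lower, against 16.6% of all genes higher and 3.55% lower. In Müller-like droplets 4 of 11 were lower, Hlf (−2.73, −3.52 to −2.00), its paralog Tef (−1.97), Rora (−1.67) and Bhlhe41 (−1.39), and Fbxw11 was higher (1.92, 0.80 to 3.28), against 17.5% of all genes lower and 25.3% higher. Cytoplasm-rich rods had 1 of 16 past 2-fold, Timeless, at 7 and 13 UMIs (1.16, −0.28 to 2.72), against 5.07% of all genes higher. By unspliced UMIs in nucleus-rich rods, 1 of 19 was higher, Timeless (1.98, 0.04 to 5.07, from 2 and 45 UMIs), and 2 were lower, Ciart (−1.23, −2.58 to 0.28) and Tipin (−1.02, −1.43 to −0.59), against 8.65% and 5.39% of all genes, and in cytoplasm-rich rods 0 of 8 were past 2-fold.

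**Figure D5:**
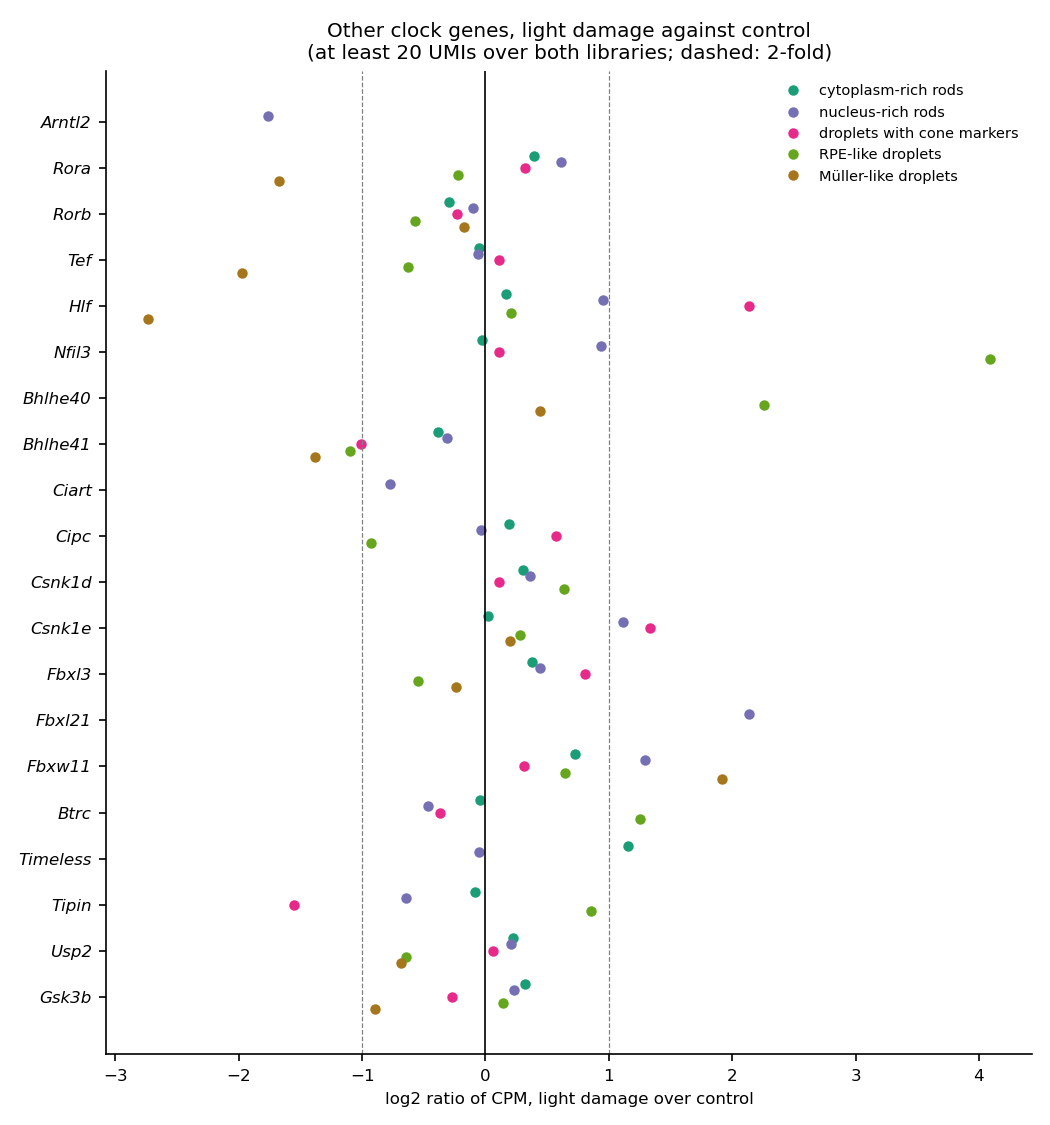
Log2 ratio of CPM, light damage over control, of 20 other clock genes with at least 20 UMIs over both libraries in a class, with dashed lines at 2-fold. In RPE-like droplets Nfil3 lies at 4.09, Bhlhe40 at 2.25 and Bhlhe41 at −1.10.

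Genes that respond to cAMP or calcium signals and glucocorticoids, the inputs known to act on Per1, are given beside it. In nucleus-rich rods 3 of 7 were higher and 0 lower, against 8.91% and 5.51% of all genes. There, where Per1 stood at 1.29, Nr4a1 had 7 and 465 UMIs (log2 ratio 3.19, 2.14 to 4.52) and Fosb 3 and 489 (4.49, 2.93 to 6.77), and Tsc22d3 stood at 1.44 (0.48 to 2.59). By unspliced UMIs there Nr4a1 stood at 5.04 (3.49 to 7.32), Tsc22d3 at 1.07 (−0.94 to 4.20) and Sik1 at −1.19 (−2.44 to 0.20). Cytoplasm-rich rods had 2 of 7 higher, against 5.07% of all genes, Nr4a1 with 6 and 34 UMIs (2.77, 1.496 to 4.31) and Fosb with 13 and 46 (2.09, 1.17 to 3.10). By unspliced UMIs there, Fkbp5 stood at 1.90 (0.63 to 3.36) and Sgk1 at −1.45 (−2.65 to −0.39). With cone markers 2 of 6 were higher, against 16.6% of all genes. Nr4a1 stood at 3.08 there (1.90 to 4.56), and Fosb had 0 UMIs in control and 32 in light damage, at least 5.45-fold higher against a floor of 3 UMIs in the control. In Müller-like droplets 1 of 2 was higher, Crem, from 1 and 22 UMIs (3.07, 0.44 to 8.44), against 25.3% of all genes. RPE-like droplets had 3 of 5 higher and 2 lower, against 13.0% and 7.02% of all genes, with Nr4a1 at 0 and 34 UMIs (at least 3.33-fold higher against the same floor), Crem at 2.02 (0.84 to 3.51) and Sik1 at 2.23 (0.81 to 4.15), but the glucocorticoid-induced Tsc22d3 at −1.48 (−2.89 to −0.03, from 9 and 11 UMIs) and Sgk1 at −1.85 (−2.03 to −1.67), from 764 to 212 CPM. Whether these inputs had a part in the values of Per1 was not tested. Among 4 counted genes of the retina that follow the clock or light, Nampt, of NAD synthesis, was higher in nucleus-rich rods (1.02, 0.43 to 1.67) and with cone markers, where it had 2 and 42 UMIs. Drd4, the dopamine receptor gene of photoreceptors, was lower with cone markers (385 CPM in control and 161 CPM in light damage, −1.26, −1.54 to −0.98), where the median share of rod marker UMIs was lower too (8.31% and 2.38%), and the part of that rod RNA was not tested. In RPE-like droplets Drd4 (32.3 and 10.8 CPM, −1.58, −2.47 to −0.69) and Pdc, the phosducin gene of photoreceptors (644 and 252 CPM, −1.35, −1.53 to −1.17), were lower, 2 of 4 genes against 7.02% of all genes. Pdc was also lower in Müller-like droplets (−2.21, −2.59 to −1.85). The estimated free RNA was lower in light damage in both classes, at 8.44% and 3.80% of the UMIs of RPE-like and 17.2% and 5.56% of Müller-like droplets, and its part was not tested.

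Among 424 genes with at least 100 UMIs over both libraries in every class, 3 genes lay nearest to Nr1d1 over the 5 log2 ratios of the classes. They were Mapre1 (Euclidean distance 1.69), Tubb4b (1.72) and Qk (1.91). In nucleus-rich rods their log2 ratios were 0.71, 1.14 and 0.84, below the 2.14 of Nr1d1.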

How the data were processed

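Retinae were pooled by condition and 1 library was made from each pool. The authors mapped the reads to mm10 with salmon 1.10.1 and alevin-fry 0.8.1, forward strand only. Their deposited files hold UMI counts of each gene in each barcode, split into spliced, unspliced and ambiguous counts, with empty droplets still in and no normalization. Gene names and positions follow GENCODE (GRCm38). A droplet had to reach the barcode curve's inflection (1464 UMIs in control, 1614 in light damage) with under 10% mitochondrial UMIs, and the highest doublet scores, 0.8% per 1000 droplets, were left out (114 and 276 droplets), since the automatic limit called 1 and 0. Classes were set by the share of marker UMIs (RPE 1%, Müller 0.6%, cone 0.3%, rod 1%), with limits set after the scores were seen, and 24 of 3144 light damage nucleus-rich rods and 6 of 28 light damage Müller-like droplets lay near a limit, where stricter limits left 9 of those 28. Barcodes under 50 UMIs stood for free RNA.

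Within a class, the UMIs of a library were added up. Intervals at 95% were exact: Poisson for CPM, binomial for shares and conditional binomial for log2 ratios. The log2 ratio intervals were run on simulated Poisson counts, which is the model they assume. That run could not show whether they hold for UMIs that cluster in droplets. No p-value was computed. Alternatives were other limits on UMIs, mitochondrial share, markers, unspliced share and counts per gene, no doublet removal, free RNA subtracted, other totals or centring, unspliced UMIs added, equal weights for droplets and a limit on rod markers. The members, lists and comparisons were chosen with earlier results of these data known. Genes named were the 10 members, other listed clock, retinal and signal-response genes past 2-fold after light damage with at least 20 UMIs in a class (in rods also by unspliced UMIs), and 3 genes of like pattern to Nr1d1. The software was matplotlib 3.10.9, scanpy 1.11.5, pandas 2.3.3, scipy 1.17.1, numpy 2.4.6 and Python 3.11.15.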

Additional observations from a re-analysis of the deposited data

Results flagged for a closer look

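Nr1d1 and Nr1d2 had log2 ratios of opposite sign between classes after light damage, with no test of the difference between classes. The log2 ratio of Nr1d1 was 0.34 in cytoplasm-rich rods, 2.14 in nucleus-rich rods and 2.14 in droplets with cone markers, and −0.83 in RPE-like droplets. Nr1d2 gave 0.42, 0.51 and 0.66 in the same rod and cone-marker classes and −0.65 in RPE-like droplets. That last value was −0.03 with droplets weighted equally. The share of RPE-like droplets with an Nr1d2 UMI, thinned to equal depth by 1 random draw, was 4.55% in control and 10.2% in light damage, with overlapping intervals. Each class is 1 library per group, so the direction is that of 1 pair of libraries.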

How the results depend on the processing

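No member past 2-fold changed direction under the alternatives run. Of 704 log2 ratios of members, 659 stayed within their interval and 45 moved, some across 0 below 2-fold, such as Nr1d1 in nucleus-rich against cytoplasm-rich control rods, from 0.66 to −0.48 with unspliced UMIs included, and 91 of 104 counts of members past 2-fold stayed within 1.5 times and 13 moved. The cause of these moves was not tested. In nucleus-rich rods the count of 3 became 1 with droplets weighted equally. In droplets with cone markers the count of 1 became 2 with no minimum of UMIs and 3 with droplets weighted equally. It became 4 with under 6% rod markers, where control held only 13 droplets. In Müller-like droplets the count of 2 became 1 under stricter marker limits, 4 with at least 10 UMIs and 6 with no minimum. The unspliced count of 1 in cytoplasm-rich rods became 0 with a mitochondrial limit of 5% or with rods under 10% and over 40% unspliced, and 2 with free RNA subtracted, with no minimum or with equal weights. Nucleus-rich against cytoplasm-rich control rods had 6 members past 2-fold, and 3 when centred on the median gene. The share of all genes past 2-fold was computed for the main setting only. The changed counts are therefore not read as results about the members. Equal weights and the rod marker limit were chosen after seeing the data. No paired analysis was possible because each group has 1 library, and for the same reason no replicate could be left out. Per2 had under 20 UMIs over both libraries in 4 of the 5 classes, and 4 members did in Müller-like droplets.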
